A study of Arabidopsis thaliana with 6 samples.

Results

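The 4 group Ib basic helix-loop-helix (bHLH) transcription factors of Arabidopsis thaliana (bHLH38, bHLH39, bHLH100 and bHLH101) and the 3 short peptides IMA1, IMA2 and IMA3 were followed through 6 RNA-seq libraries of whole anthers. These 7 loci of the 33027 in the deposited tables were taken by name, under a rule that holds no measured value, although earlier results of these data were known when it was written. Their counts and TPM were read for each transcript and summed for each locus.

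Group Ib bHLH factors are transcription factors that pair with the bHLH factor FIT in root epidermis and switch on the genes of iron reduction and import. They belong to the genes most strongly induced by iron shortage in roots and leaves. The IMA peptides are small proteins whose aspartate-rich end binds BTS-type E3 ligases, which would otherwise mark the upstream bHLH factors for degradation. Both families are known mainly from vegetative organs.

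All anthers came from wild-type (WT) plants of the Col-0 ecotype, 3 libraries from control plants and 3 from Fe-deficient plants. All plants grew with iron for 28 days, of which 10 were on agar plates and 18 in hydroponic culture on Hoagland medium. For another 18 days the control plants were given NaFe-EDTA and the Fe-deficient plants were not, after which whole anthers of 1 labelled stage were collected. The comparison asks how withholding iron from the plant alters anther transcripts, and whether each library of a group is a separate plant is not in the labels, so that p-values reflect the spread among these 6 libraries, part or all of which may be technical.

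Library totals were 16818176 to 22710901 estimated counts, and 24444 to 25208 loci had at least 1 count in a library. The anther label was met by tapetum markers at 399 to 2219 summed CPM (counts scaled to the library total), by 4 pollen markers at 611 to 6701 summed CPM and by the endothecium regulator MYB26 at 33.2 to 59.8 CPM, while the tapetum regulator DYT1 was at 0 in Fe-deficient 2. Library Fe-deficient 3 stood apart from Fe-deficient 1 and Fe-deficient 2 in the 7 genes, in some of the iron genes described further on and in the petal and sepal regulator AP1, which had 98.7 CPM there against 14.3 and 15.2 CPM in Fe-deficient 1 and 2. Control 3 stood apart in AP1 as well, at 84.7 CPM against 10.9 and 18.8 CPM in controls 1 and 2.

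The IMA genes are placed as a close pair and a distant single gene. IMA2 (AT1G47395) and IMA1 (AT1G47400) are single-exon genes on the plus strand of chromosome 1, at 17382998 to 17383830 and 17385707 to 17386485 of the TAIR10.1 assembly, with 1876 bases between them. IMA3 (AT2G30766) lies on the plus strand of chromosome 2 at 13107583 to 13110480 and has 2 or 3 exons by transcript. The coding sequence with its stop codon is 153 bases in IMA1 and IMA2 and 144 bases in IMA3. The last 60 coding bases are shown because they encode the acidic end that defines the family; capitals mark bases that are the same in all 3 genes (RefSeq, TAIR10.1, plus strand, chr1:17385911-17385970, chr1:17383210-17383269 and chr2:13108152-13108211).
IMA1: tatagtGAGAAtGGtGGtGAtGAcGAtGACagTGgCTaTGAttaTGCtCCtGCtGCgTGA
IMA2: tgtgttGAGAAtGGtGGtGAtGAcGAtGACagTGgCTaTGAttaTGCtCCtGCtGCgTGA
IMA3: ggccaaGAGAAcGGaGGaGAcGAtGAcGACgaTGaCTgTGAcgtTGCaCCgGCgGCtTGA
In this stretch 37 of 60 bases are shared by all 3 genes, and its middle is a run of GAT and GAC codons, which encode aspartate. IMA1 and IMA2 are identical at 57 of the 60 bases, and IMA3 matches IMA1 at 37 and IMA2 at 38. Upstream of their starts IMA1 and IMA2 also share a run of 28 bases, shown here because no other pair among the 7 promoters shares one as long (chr1:17385459-17385486 for IMA1 and chr1:17382782-17382809 for IMA2, plus strand).
shared run: aaaggaaaatgctttacatgtgttacta
The longest run shared by any other pair is 16 bases, in the promoters of bHLH38 and bHLH39.

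Of the bHLH genes, bHLH38 (AT3G56970) and bHLH39 (AT3G56980) are also neighbours. They lie on the minus strand of chromosome 3 at 21084035 to 21085245 and 21086390 to 21087710, with 1144 bases between them. bHLH100 (AT2G41240) lies on the minus strand of chromosome 2 at 17198037 to 17199454 and bHLH101 (AT5G04150) on the minus strand of chromosome 5 at 1138410 to 1139633. RefSeq gives each of the 4 genes 2 exons, or 3 in 1 transcript of bHLH101. The 250 bases before the RefSeq start are given for 3 of them because bHLH proteins bind the E-box, CANNTG, whose form CACGTG is called the G-box; capitals mark each CANNTG (TAIR10.1, minus strand, chr3:21085246-21085495, chr3:21087711-21087960 and chr2:17199455-17199704).
bHLH38: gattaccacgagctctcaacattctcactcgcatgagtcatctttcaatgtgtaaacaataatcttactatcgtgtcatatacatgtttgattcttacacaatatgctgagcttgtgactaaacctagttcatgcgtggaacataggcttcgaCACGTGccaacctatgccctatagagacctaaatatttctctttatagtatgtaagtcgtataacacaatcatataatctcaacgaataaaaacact
bHLH39: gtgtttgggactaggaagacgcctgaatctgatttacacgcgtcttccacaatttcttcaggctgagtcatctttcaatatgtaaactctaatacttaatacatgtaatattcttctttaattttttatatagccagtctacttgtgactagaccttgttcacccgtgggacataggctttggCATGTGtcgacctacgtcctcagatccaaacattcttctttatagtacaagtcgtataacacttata
bHLH100: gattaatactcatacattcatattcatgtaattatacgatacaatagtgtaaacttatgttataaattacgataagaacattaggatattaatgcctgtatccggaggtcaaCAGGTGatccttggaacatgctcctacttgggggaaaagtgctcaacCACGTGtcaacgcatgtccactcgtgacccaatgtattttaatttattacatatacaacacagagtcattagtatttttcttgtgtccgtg
A G-box begins 97 bases before the start of bHLH38 and 91 bases before that of bHLH100, and none is in the windows of the other 5 genes. Both motifs read the same on either strand, and every G-box is also an E-box. Of 27443 protein-coding genes, 6.49% hold a G-box in the same window and 55.3% an E-box, which 6 of the 7 genes hold and bHLH101 does not. In 1000 bases before the start, bHLH38, bHLH100 and IMA3 hold a G-box, 3 of 7 genes against 14.8% of all. The single E-box of bHLH39 begins 67 bases before its start and differs from the G-box of bHLH38 by C3T, counted from the first base of the motif in bHLH38. With 20 bases on each side, 31 of these 46 bases are identical between the 2 promoters. A match of letters describes the window and does not show that a protein binds there.

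All 7 genes had their highest level by far in 1 library, Fe-deficient 3, and had between 0 and 64 counts in each of the other 5 libraries. At least 3 log2 units above the control mean on the log2(CPM + 0.5) scale in Fe-deficient 3 were 7 of the 7 genes, against 0.804% of the 27223 loci with a count. Each was higher there than in every other library, which held for 21.2% of those loci. The 7 genes took 7 of the 10 highest ranks among those loci. In bulk RNA, fewer cells of a type and less RNA per cell cannot be told apart, which applies to every level given here.

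**Figure D1:**
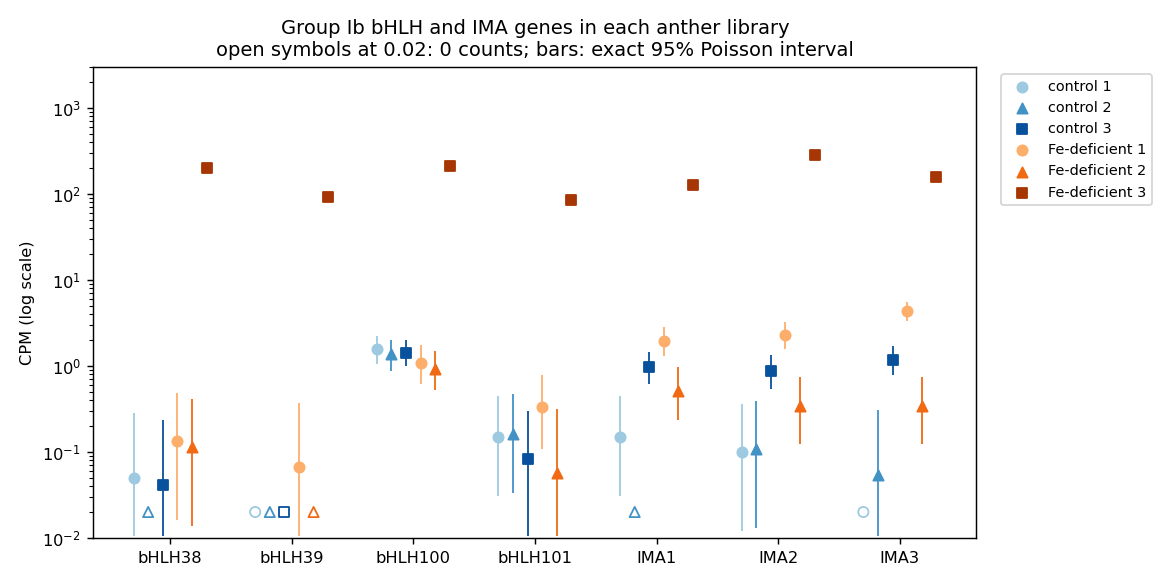
CPM (log scale) of the 7 genes in each of the 6 libraries, controls in blue and Fe-deficient in orange, with exact 95% Poisson intervals as bars; open symbols mark 0 counts and are drawn at 0.02. Every gene lies between 83.5 and 282 CPM in Fe-deficient 3 and at most at 4.30 CPM in the other libraries.

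The controls held 1, 0 and 1 estimated counts of bHLH38, and Fe-deficient 1, 2 and 3 held 2, 2 and 4529. On library sizes scaled by TMM this was 0.0502, 0 and 0.0417 CPM in the controls and 0.134, 0.113 and 198 CPM in the Fe-deficient libraries. It was the one member above all controls in all 3 Fe-deficient libraries, as were 8.9% of all loci, but in Fe-deficient 1 and 2 this rests on 2 counts each, and their counting intervals (0.0163 to 0.486 and 0.0137 to 0.409 CPM) overlap those of controls 1 and 3. Against the 2 counts pooled over the controls, its level in Fe-deficient 3 was 6163-fold higher, with a 95% counting interval of 1705 to 50908. Its rank among all loci for the difference of Fe-deficient 3 from the controls was 1, at 8.55 log2 units.

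Its neighbour bHLH39, which also dimerizes with FIT, was without a count in every control and in Fe-deficient 2; Fe-deficient 1 held 1 count of it and Fe-deficient 3 held 2121. A count of 0 allows up to 3 counts, which is 0.125 to 0.163 CPM in the controls and 0.170 CPM in Fe-deficient 2. Against that limit of 3 counts in each control, its 92.7 CPM in Fe-deficient 3 was at least 568-fold higher. In that library bHLH38 stood at 1.91 times the level of bHLH39 in TPM, which is scaled for transcript length.

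bHLH100 was the member with the most counts in each control, and the only one with at least 16 counts in every library. Its counts were 31, 25 and 34 over the controls and 16, 16 and 4865 over Fe-deficient 1, 2 and 3. In CPM the controls were at 1.56, 1.36 and 1.42, a mean of 1.44 ± 0.101 (SD, n = 3), and the Fe-deficient libraries at 1.08, 0.907 and 213. It thus lay below all controls in Fe-deficient 1 and 2, with counting intervals (0.615 to 1.75 and 0.518 to 1.47 CPM) that overlap those of the controls, and 147-fold above their mean in Fe-deficient 3. Of the counts of the 4 bHLH genes, bHLH100 made up 31 of 35, 25 of 28 and 34 of 37 in the controls but 4865 of 13426 in Fe-deficient 3. In TPM it stood at 42.2 and 47.0 times the level of bHLH38 in controls 1 and 3, each on 1 count of bHLH38, and at 1.46 times in Fe-deficient 3.

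bHLH101, which acts beside the other three in iron-starved roots and leaves, had 3, 3 and 2 counts in the controls and 5, 1 and 1911 in Fe-deficient 1, 2 and 3. The levels were 0.151, 0.163 and 0.0835 CPM against 0.336, 0.0567 and 83.5 CPM. Fe-deficient 1 and 2 lay on either side of the controls with overlapping counting intervals, and Fe-deficient 3 was 631-fold above the control mean.

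The 3 IMA genes, whose peptides promote the iron-deficiency response, ordered the libraries alike apart from controls 1 and 2. IMA1 was at 0.151, 0 and 0.960 CPM over the controls, in order, and at 1.95, 0.510 and 127 CPM over Fe-deficient 1, 2 and 3. IMA2 was at 0.10, 0.109 and 0.876 CPM against 2.29, 0.340 and 282 CPM. IMA3 was at 0, 0.0543 and 1.17 CPM against 4.30, 0.340 and 156 CPM. Each was thus highest in Fe-deficient 3, next in Fe-deficient 1, then in control 3 and after it Fe-deficient 2, with controls 1 and 2 at the bottom.

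Of the steps in that order, Fe-deficient 1 lay above control 3 beyond counting error for IMA2 (1.58 to 3.19 against 0.542 to 1.34 CPM) and IMA3 (3.31 to 5.49 against 0.776 to 1.69 CPM). For IMA1 the intervals overlap, at 1.31 to 2.80 and 0.608 to 1.44 CPM. The intervals of control 3 and Fe-deficient 2 overlap for IMA1 and IMA2, and for IMA3 Fe-deficient 2 (0.125 to 0.740 CPM) lies just under control 3. Those of Fe-deficient 2 and control 1 overlap for all 3 genes, and those of Fe-deficient 2 and control 2 for IMA2 and IMA3. For IMA1, Fe-deficient 2 (0.233 to 0.968 CPM) lies just over control 2 (0 to 0.200 CPM). These intervals, like the limit of 3 counts, cover counting error only and not the spread between plants or preparations.

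Fe-deficient 1 exceeded all controls in 6 of the 7 genes, all but bHLH100, against 34.4% of all loci. Fe-deficient 2 did so in 1 gene, bHLH38, against 33.3%, on 2 counts. In Fe-deficient 1 the excess rests on 2 counts of bHLH38, 1 of bHLH39 and 5 of bHLH101. Its counting intervals lay above those of all controls for IMA2 and IMA3 alone. Control 3 exceeded controls 1 and 2 in 3 of the 7 genes, IMA1, IMA2 and IMA3, against 33.3% of loci. Summed over the IMA genes the counts were 5, 3 and 72 over the controls and 127, 21 and 12925 over Fe-deficient 1, 2 and 3. Summed over the bHLH genes they were 35, 28 and 37 against 24, 19 and 13426. The median log2 difference of the 7 genes from the control mean was 0.41, 0.08 and 7.54 over Fe-deficient 1, 2 and 3, against medians of -0.03, -0.02 and 0 over all loci with a count.

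**Figure D2:**
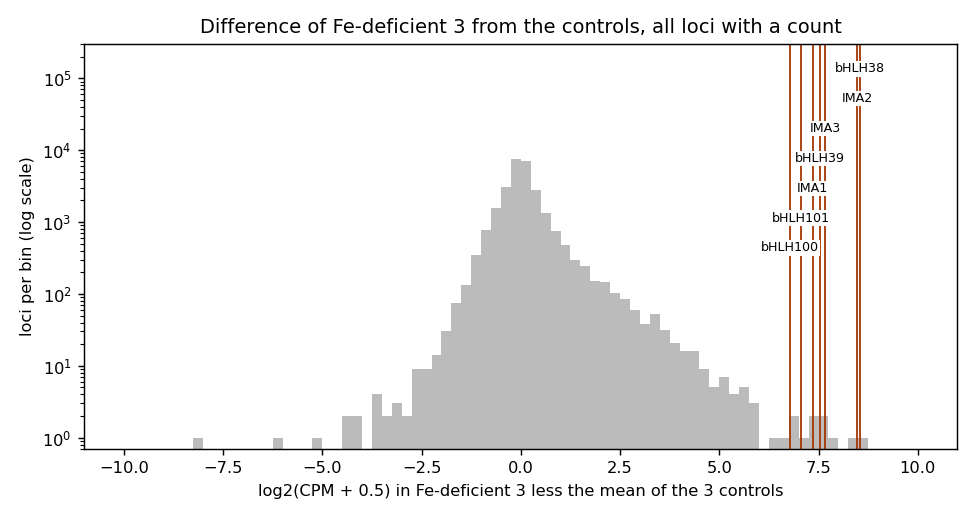
Number of loci (log scale) by their difference in log2(CPM + 0.5) between Fe-deficient 3 and the mean of the 3 controls, for 27223 loci in grey, with the 7 genes as vertical lines. The lines stand between 6.78 (bHLH100) and 8.55 (bHLH38), at the far right of all loci.

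Over the 2 groups of 3 libraries the genes could not be separated from the spread between Fe-deficient libraries. edgeR's quasi-likelihood test was made for 4 of the 7, because bHLH38, bHLH39 and bHLH101 had too few counts in all libraries but 1 to pass its filter on low counts. The log2 fold change was 5.63 (SE 2.19) for bHLH100, 6.75 (SE 2.38) for IMA1, 7.92 (SE 2.70) for IMA2 and 6.92 (SE 2.43) for IMA3. At a Benjamini-Hochberg adjusted p under 0.05 none was called, with edgeR adjusted p of 0.364, 0.346, 0.339 and 0.346 in that order. Of all 21267 loci tested, 0% were called higher and 0% lower, with 0.329 as the lowest adjusted p by edgeR. All 4 tested members had an unadjusted p under 0.05, as did 13.4% of all tested loci.

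The result depends on how the single high library is treated. Without Fe-deficient 3 the log2 fold change of bHLH100 was -0.54 (SE 0.32, edgeR adjusted p = 0.284), and those of IMA1, IMA2 and IMA3 were 1.63, 1.76 and 2.40, with 0 of the 4 called. Without control 3, the control with the highest IMA levels, the 3 IMA genes had log2 fold changes of 8.998, 9.74 and 10.68, and edgeR again called 0. With limma-voom the value of bHLH100 was 2.45. DESeq2 with its default settings gave no adjusted p to any of the 7, since its filter on counts far from their group (Cook's distance) set them aside, and it called 2.01% of loci higher and 1.28% lower. With that filter off, an alternative chosen after the data were seen, DESeq2 called 4 of the 7 higher: bHLH38 (adjusted p = 0.00699), bHLH39 (3.46e-07), bHLH101 (0.0208) and IMA2 (0.0127). It called 2.1% of all loci higher and 1.26% lower in that form. The other 3, with DESeq2 adjusted p of 0.0666 for bHLH100, 0.0744 for IMA1 and 0.0874 for IMA3, were not called. The lowest of these p-values, that of bHLH39, came with a DESeq2 log2 fold change of 24.97, which no control count bounds. Its counts were 0 in every control and 1, 0 and 2121 in Fe-deficient 1, 2 and 3, so the call rests on 1 library. edgeR without its low-count filter gave bHLH39 12.23 at an adjusted p of 0.423.

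Levels between the genes were compared in TPM, which is per length, in Fe-deficient 3. IMA2 was highest at 2162 TPM, rank 20 of all loci, followed by IMA3 at 802 TPM and IMA1 at 555 TPM. The bHLH genes followed at 422 TPM for bHLH100, 289 TPM for bHLH38, 170 TPM for bHLH101 and 151 TPM for bHLH39. Together the 7 genes made up 0.455% of the TPM of that library, 0.352% from IMA genes and 0.103% from bHLH genes. In the other 5 libraries their summed TPM was between 4.02 and 39.7.

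The TPM of the IMA genes rests on short transcripts, of which the files count only a part as effective length. In counts the 2 families stood in the reverse order in Fe-deficient 3, at 13426 for the bHLH genes and 12925 for the IMA genes. The IMA2 transcript has 375 bases and an effective length of 126, and that of IMA1 470 and 221. Per 1000 bases of the full deposited length the counts were 17195 for IMA2, 8709 for IMA3, 6469 for bHLH100, 6174 for IMA1, 4966 for bHLH38, 2643 for bHLH101 and 2516 for bHLH39. On this scale bHLH100 stood above IMA1, and the other ranks were as in TPM. Both scales rest on the deposited lengths, and RefSeq's longest transcripts are longer, at 833 bases for IMA2, 1995 for IMA3 and 1029 for bHLH101. Per 1000 bases of these, a scale added after the data were seen, the counts were 7741 for IMA2, 4205 for bHLH100, 4186 for bHLH38, 3725 for IMA1, 1857 for bHLH101, 1792 for IMA3 and 1746 for bHLH39. IMA2 was first and bHLH39 last on all 3 scales, while IMA3 moved from rank 2 to rank 6, so the order of IMA3 and IMA1 against the bHLH genes depends on the transcript length used. IMA2 exceeded IMA1 by 3.90 times in TPM, 2.78 times per full deposited length and 2.22 times in counts. In control 3 the ratio in counts was 0.913 and in Fe-deficient 1 it was 1.17.

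**Figure D3:**
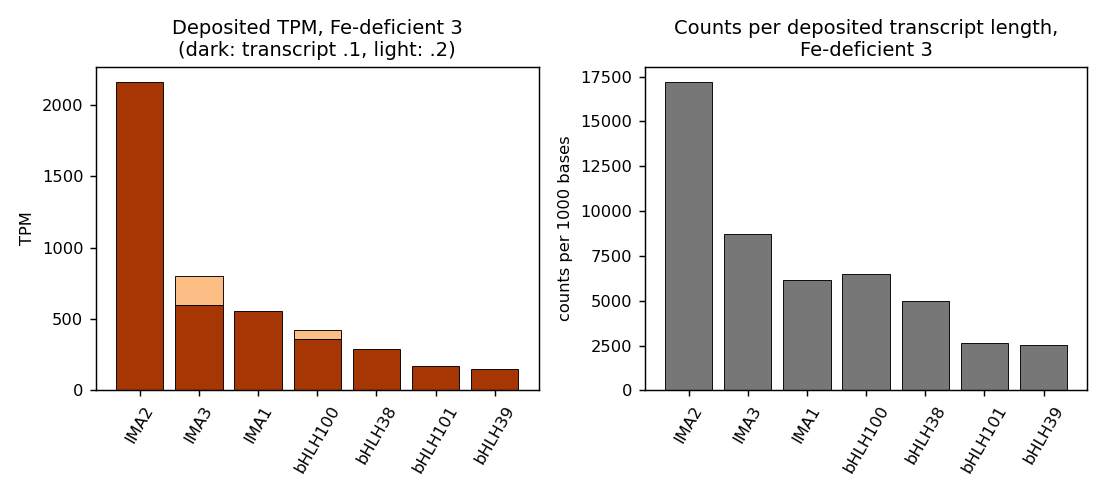
Level of each gene in Fe-deficient 3, as deposited TPM per effective length (left; transcript 1 dark and transcript 2 light) and as counts per 1000 bases of full deposited transcript length (right). IMA2 leads on both scales, at 2162 TPM and 17195 counts per 1000 bases, and bHLH100 passes IMA1 on the right.

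The loci with 2 transcripts were bHLH100 and IMA3. Of the bHLH100 counts in Fe-deficient 3, 16.1% were assigned to transcript 2 (775 bases) and the rest to transcript 1 (729 bases). The share of transcript 2 was 16.7% in control 1, 28.6% in control 2, 0% in control 3 and Fe-deficient 1 and 15.5% in Fe-deficient 2, on 16 to 34 counts each. For IMA3, transcript 2 (357 bases) took 14.3% of the counts and 24.95% of the TPM in Fe-deficient 3, and 6.03% and 6.68% of the counts in control 3 and Fe-deficient 1.

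Sequence shared between members was short. Among RefSeq transcripts, IMA1 and IMA2 shared a longest run of 59 bases, bHLH38 and bHLH39 one of 34 and bHLH39 and bHLH100 one of 32, while the reads were 150 bases long. The estimated counts of IMA1, IMA2, bHLH38, bHLH39 and bHLH101 were whole numbers in 6 of 6 libraries, and fractions appeared only between the 2 transcripts of bHLH100 and of IMA3. Paralogous reads can still have been assigned to 1 copy of a pair. With IMA1 and IMA2 summed, the log2 fold change of the pair was 7.47 (SE 2.58) at an adjusted p of 0.343 by edgeR.

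Most loci beside the members lay within 1 log2 unit of the control mean in Fe-deficient 3. Around the 7 members lie 14 other loci, neighbours or overlapping genes, of which 10 were tested and edgeR called 0, with 2 at an unadjusted p under 0.05 (13.4% of all tested loci). DESeq2 called AT1G47405 once its Cook's distance filter was off, at a log2 fold change of 23.1 set by Fe-deficient 3 alone. Their median log2 difference in Fe-deficient 3 was 0.39. At least 1 log2 unit above the control mean there were 3 of the 14, AT1G47405, CYP71A13 and CYP71A12, the last at 1.53 CPM, against 6.57% of all loci with a count. At least 1 unit below was 1, AT1G47390 beside IMA2, at a difference of -1.15, against 2.35% of those loci. AT1G47405 is annotated as a pseudogene 3193 bases beyond IMA1 (chromosome 1, 17389679 to 17390781, plus strand). Its level was 24.0 CPM in Fe-deficient 3, with no count in the other 5 libraries, and its longest run shared with a RefSeq transcript of IMA1 is 10 bases. CYP71A13, a camalexin biosynthesis gene that overlaps IMA3 on the other strand, had 5.33 CPM in Fe-deficient 3 and 0.113 CPM or less elsewhere.

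GLU1, a ferredoxin-dependent glutamate synthase that overlaps bHLH101 on the other strand, was at 89.0 CPM in Fe-deficient 3, within the control range of 46.4 to 174.7 CPM. The top of that range is control 3, while controls 1 and 2 were at 52.2 and 46.4 CPM and Fe-deficient 1 and 2 at 33.7 and 24.8 CPM. PIP5K4, which overlaps bHLH38 on the other strand, was at 34.9 CPM there and at 81.5 and 76.3 CPM in Fe-deficient 1 and 2. The labels and file headers say nothing of strand, so the values of genes that overlap on opposite strands are uncertain. EDA7, on the other side of bHLH39 at a distance of 316 bases, was at 48.9 CPM against 38.3 to 49.5 CPM in the controls. The loci with an unadjusted p under 0.05 by edgeR were PIP5K4 and AT2G41250, beside bHLH100, which was at 12.1, 13.4 and 13.9 CPM over the controls and at 17.9, 17.5 and 21.9 CPM over Fe-deficient 1, 2 and 3. The other 6, SIP2;1, AT2G41231, GYRB2, AT5G04160, AT2G30780 and AT2G30760, had log2 differences of -0.13 to 0.52 in Fe-deficient 3.

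Outside the members, the 8 loci with the most similar profile were picked by the root mean square (RMS) of the difference between their log2(CPM + 0.5) profile over the 6 libraries and the mean profile of the 7 genes, among 22468 loci. The closest was AT2G14247, with an RMS difference of 0.275 log2 units and 136 CPM in Fe-deficient 3 against at most 1.28 CPM elsewhere. The members themselves differ from their own mean by 0.370 (bHLH39) to 0.781 (IMA3), so AT2G14247 is closer to that mean than any of them. Then came AT2G04050, annotated as a MATE efflux family protein (0.566), the glutathione S-transferase GSTF2 (0.716), the hemoglobin HB1 (0.788), AT1G62420 (0.794), AT5G05250 (0.875), the pseudogene AT2G14230 (0.885) and AT1G47405 (0.929). The 6 libraries are the only points, and 1 of them, Fe-deficient 3, holds nearly all of the difference.

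**Figure D4:**
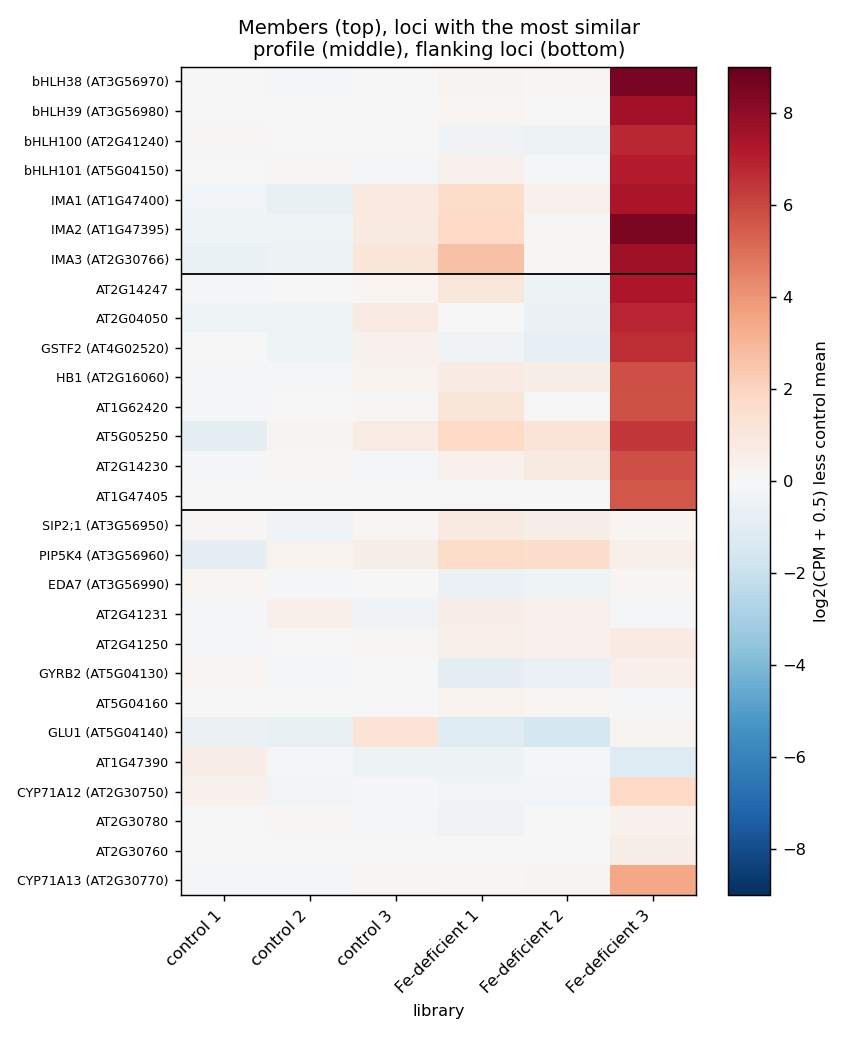
Difference in log2(CPM + 0.5) from the mean of the 3 controls in each library, for the 7 genes (top), the 8 loci with the most similar profile (middle, with the IMA1 neighbour AT1G47405) and the other flanking loci (bottom). The column of Fe-deficient 3 is red in the upper blocks and paler in the lower one, where CYP71A13 (3.47), CYP71A12 (1.79) and AT1G47390 (-1.15) are the loci past 1 log2 unit, and control 3 and Fe-deficient 1 are tinted in the 3 IMA rows.

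Some genes on a list of further iron regulators, not all of which act on the members directly, were high in Fe-deficient 3 as well. Of these 10 regulators, all tested, edgeR called 0 and had 2 at an unadjusted p under 0.05 (13.4% of all tested loci). Their log2 fold changes were above 0 in 9 and below in 1, with a median of 0.28, against 0.00251 over all tested loci. In Fe-deficient 3, 4 lay at least 1 log2 unit above the control mean and 1 below, against 6.57% and 2.35% of all loci. The 4 were BTS, PYE, BTSL1 and BTSL2, and the 1 below was bHLH11. BTS, the E3 ligase that IMA peptides bind, was at 75.4 ± 4.31 CPM (SD, n = 3) in the controls and at 101, 79.5 and 859 CPM in Fe-deficient 1, 2 and 3. PYE, a bHLH repressor of iron distribution genes, was at 10.2 ± 1.07 CPM (SD, n = 3) against 15.1, 14.5 and 46.1 CPM. BTSL1, a BTS homologue, was at 6.48 ± 0.867 CPM (SD, n = 3) against 12.03, 15.9 and 22.2 CPM, its log2 fold change was 1.37 (SE 0.27) at an adjusted p of 0.329 by edgeR, and DESeq2 called it higher (adjusted p = 0.00199).

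The group IVc factors bHLH34, bHLH104, ILR3 and bHLH115, which activate the group Ib genes, lay at 0.635 to 1.42 times their control mean in Fe-deficient 3. FIT, the dimer partner of the group Ib factors, was at 0.351 to 1.08 CPM in the controls and at 0.538, 0.907 and 1.005 CPM in Fe-deficient 1, 2 and 3, all within that range. Of the list of FIT and its group IVa antagonists, 3 of 5 were tested and 0 called by edgeR, with 1 at an unadjusted p under 0.05 (13.4% of all tested loci). bHLH20 was at 3.06 ± 1.75 CPM (SD, n = 3) against 11.2, 12.3 and 7.52 CPM and was called higher by DESeq2 (adjusted p = 0.0374), and bHLH18 was at 1.86 ± 0.203 CPM (SD, n = 3) against 0.807, 1.70 and 1.18 CPM.

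The root targets of the FIT dimers had a list median near the control level in Fe-deficient 3, with single genes on either side. Of 17 root uptake genes 12 were tested and 0 called by edgeR, 1 at an unadjusted p under 0.05 (13.4% of all tested loci), with 4 log2 fold changes above 0 and 8 below and a median of -0.07. Their median difference in Fe-deficient 3 was -0.04 log2 units. IRT2, S8H, CYP82C4, NAS1 and NAS2 were at 0.403 CPM or less in every library, where the pseudocount holds differences near 0. At least 1 log2 unit above the control mean there were 2, FRO2 and MYB72, and below 1, COPT2, against 6.57% and 2.35% of all loci with a count. IRT1 was at 24.5 ± 3.20 CPM (SD, n = 3) in the controls and at 23.3, 14.3 and 12.9 CPM in Fe-deficient 1, 2 and 3. FRO2, the root ferric reductase, was at 0.351, 0.217 and 3.09 CPM in the controls and at 16.3, 1.47 and 3.41 CPM in Fe-deficient 1, 2 and 3, so that its highest library was Fe-deficient 1. MYB72, a root regulator of the iron response, was at 0.242 ± 0.0880 CPM (SD, n = 3) against 2.76, 0.850 and 2.62 CPM and was called by DESeq2 (adjusted p = 0.00451). Its homologue MYB10 was at 3.91 ± 1.38 CPM (SD, n = 3) against 1.88, 2.21 and 2.62 CPM. COPT2, a copper transporter, was at 9.12 ± 6.65 CPM (SD, n = 3) in the controls and at 0.437 CPM in Fe-deficient 3.

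Most genes on a list of iron movement inside the plant, which also holds the kinase gene ORG1, were high where the members were. Of these 9 genes 7 were tested and 0 called by edgeR, with 6 log2 fold changes above 0, 1 below and a median of 1.75. Of the 7, 5 had an unadjusted p under 0.05 by edgeR, against 13.4% of all tested loci. In Fe-deficient 3, 6 lay at least 1 log2 unit above the control mean and 1 below, against 6.57% and 2.35% of all loci with a count. OPT3, which loads iron into phloem, was at 26.5 ± 10.8 CPM (SD, n = 3) against 67.6, 19.5 and 572 CPM, high in Fe-deficient 1 and 3 like the IMA genes. ORG1, a protein kinase gene, was at 32.04 ± 4.04 CPM (SD, n = 3) against 57.2, 38.8 and 485 CPM, and DESeq2 called it (adjusted p = 0.0490). NAS4, a nicotianamine synthase, had 6.12 CPM in Fe-deficient 3 and 0.125 CPM or less elsewhere. YSL1, a transporter of metal-nicotianamine complexes, went the other way, at 41.6 ± 17.8 CPM (SD, n = 3) against 18.9, 11.3 and 5.72 CPM, and DESeq2 called it lower (adjusted p = 0.0268).

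Most genes on a list of iron storage and iron-using proteins were low in the library in which the members were high. Of its 10 genes, with FSD1 and NEET besides storage genes, 9 were tested and 0 called by edgeR or DESeq2. Their log2 fold changes were above 0 in 2 and below in 7, with a median of -1.10. By edgeR 1 of the 9 had an unadjusted p under 0.05, against 13.4% of all tested loci. In Fe-deficient 3, 0 lay at least 1 log2 unit above the control mean and 7 below, against 6.57% and 2.35% of all loci with a count. The ferritin FER1 was at 408 ± 24.7 CPM (SD, n = 3) against 408, 576 and 31.8 CPM in Fe-deficient 1, 2 and 3. FER3 and FER4 were at 91.8 ± 23.1 and 46.8 ± 5.23 CPM (SD, n = 3) in the controls and at 16.4 and 1.84 CPM in Fe-deficient 3. FSD1, an iron superoxide dismutase, was at 47.0, 147 and 412 CPM in the controls and at 19.5, 10.8 and 0 CPM in Fe-deficient 1, 2 and 3.

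**Figure D5:**
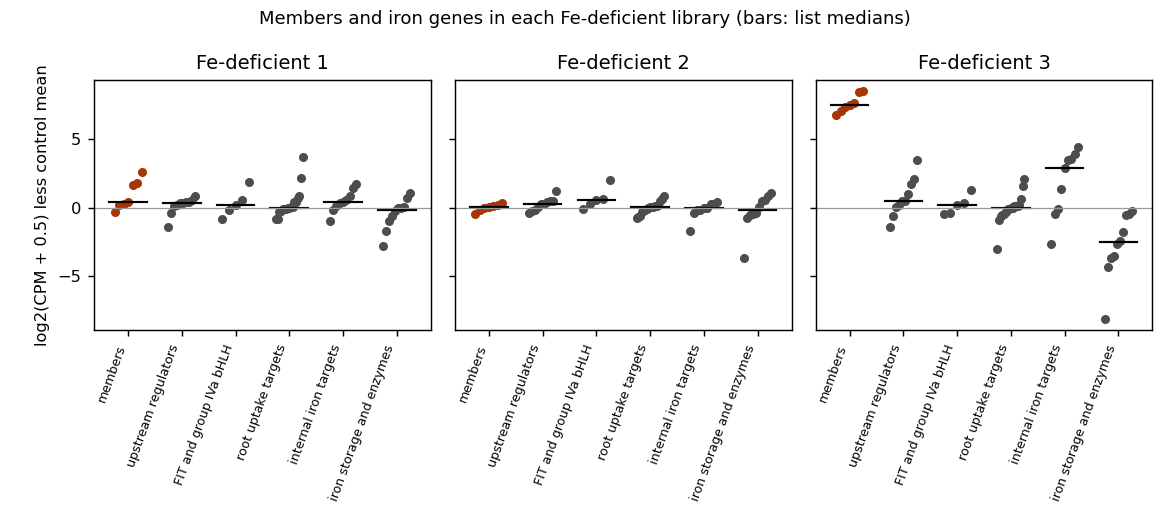
Difference in log2(CPM + 0.5) from the control mean for the 7 genes (orange) and 5 lists of iron genes (grey) in each Fe-deficient library, 1 dot per locus, with bars at the list medians. In Fe-deficient 3 the members centre on 7.54, internal iron genes on 2.88 and genes of iron storage and iron-using proteins on -2.54, while root uptake genes centre on -0.04.

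Markers of other tissues were set beside the members because Fe-deficient 3 and control 3 stood apart in some of them. The phloem markers SUC2, APL and SEOR1 were higher in Fe-deficient 3 than in the other 5 libraries in 3 of 3 cases, against 21.2% of all loci with a count. They summed to 150 CPM there against 34.3 to 90.6 CPM in the controls and 78.5 and 59.7 CPM in Fe-deficient 1 and 2. The petal and sepal marker AP1 was higher in Fe-deficient 3 than in control 3 by 1.17 times, and the phloem markers by 1.54 to 1.77 times. Between the same libraries IMA1, IMA2, IMA3 and bHLH100 differed by 132, 322, 134 and 150 times. The share of these tissues in the levels of the members was not tested.

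Of 6 leaf markers, LHCB2.1 alone lay above all controls in all 3 Fe-deficient libraries, against 8.9% of all loci with a count. It was at 58.9 to 60.2 CPM in the controls and at 174, 72.9 and 128 CPM in Fe-deficient 1, 2 and 3. The summed CPM of the leaf markers was 3484 to 5278 in the controls and 2674 to 4169 in the Fe-deficient libraries. RBCS1A, RBCS2B, RCA and GAPA were higher in control 3 and Fe-deficient 3 than in every other library, and LHCB1.3 and LHCB2.1 were not. The share of all loci with that order of libraries was not counted. RBCS2B differed most, at 532 CPM in control 3 and 255 CPM in Fe-deficient 3, against 22.5 to 63.4 CPM elsewhere. Root markers were at or near 0. Apart from COBL9, which was at 22.4 to 43.4 CPM in 5 libraries and lowest in Fe-deficient 3 (10.8 CPM), the 5 root markers were at most at 0.218 CPM in any library, and EXPA7 was at 0 in all. Carpel markers summed to 7.14 to 16.0 CPM in the controls and 2.83 to 8.78 CPM in the Fe-deficient libraries, with INO at 0 in Fe-deficient 1. Tapetum markers summed to 1240 to 2219 CPM in the controls and 399 to 875 CPM in the Fe-deficient libraries, and pollen markers to 611 to 2400 and 2048 to 6701 CPM. In both of these Fe-deficient 3 was the Fe-deficient library nearest to the controls, while in the 7 iron genes it was the farthest from them.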

How the data were processed

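The submitters' processing notes name the TAIR10 build, Salmon 0.12.0 and Trimmomatic 0.35; how strand was handled is not given. The deposited tables are Salmon output for transcripts per the file headers, and the authors' estimated counts (75.3% of them whole) and TPM were used as deposited. Length and effective length, another measure of the deposited tables, served for levels per length and for an offset. Estimated counts of 41086 transcripts were added up to 33027 loci and rounded.

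The test was edgeR 4.0.16 (quasi-likelihood, TMM, filterByExpr, group only) with Benjamini-Hochberg adjustment over all tested loci, in R 4.3.3. DESeq2 1.42.0 and limma 3.58.1 gave alternatives, beside other scalings, filters, pseudocounts, a replicate block and each library left out. The edgeR step was tested on simulated data. CPM used whole library totals times TMM factors (0.884 to 1.06), and log2 differences a pseudocount of 0.5 CPM. Intervals are exact Poisson at 95%, and the ratio to pooled counts has an exact conditional binomial interval. Coordinates and sequences are RefSeq's for TAIR10.1, of which the deposited tables hold none, and a RefSeq transcript equalled a deposited one in length for 1 of the 7 members. Names were found there for 32341 of the loci, and 3 further list loci were not used here.

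Named were all members, flanking loci, the 8 most similar loci, and from each list up to 3 with the largest difference in Fe-deficient 3 (mean of at least 1 CPM) and up to 2 with the lowest p. FIT, the group IVc genes, BTSL2, bHLH11, further root uptake genes and single markers are named besides. Members and lists were chosen with earlier results of these data known.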

Additional observations from a re-analysis of the deposited data

How the results depend on the processing

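Over 77 values of the members' log2 fold changes under alternatives, 76 were above 0 and 1 was below, bHLH100 without Fe-deficient 3; with 1 library left out that gene ranged from -0.54 to 6.20, IMA1 from 1.63 to 8.998, IMA2 from 1.76 to 9.74 and IMA3 from 2.40 to 10.68. All 4 genes were lowest without Fe-deficient 3, and the IMA genes were highest without control 3. Every other fit kept Fe-deficient 3, where each member was highest by far, so its sign says little of Fe-deficient 1 and 2. DESeq2 gave the same fold changes with and without its Cook's distance filter, and both forms are among the 77. For bHLH100, IMA1, IMA2 and IMA3, in order, limma-voom gave 2.45, 5.19, 4.97 and 5.86. edgeR with other scalings, low-count filters or a length offset, limma-voom, limma on TPM and the fits without 1 library called 0 members, 0 list genes and 0 flanking loci. No transcript differed in effective length between libraries. The length offset was therefore equal in all libraries for loci with 1 transcript, such as IMA1 and IMA2, and is no separate check of them. DESeq2 called 439 loci higher and 278 lower, and 473 and 283 without its Cook's distance filter, where 4 members and 1 flanking locus (AT1G47405) were called; it called 5 list genes in either form. Correlations of deviations between libraries of the same replicate number were -0.18, 0.40 and -0.13, against -0.32 to 0.34 between other numbers. The highest was thus between same-numbered libraries, and so few values do not settle whether the numbers pair the libraries. The fit with the replicate number as a block (replicate block) called 0 loci, at a lowest adjusted p of 0.396 by edgeR. Its log2 fold changes were 6.25 (SE 0.84), 7.23 (SE 1.40), 6.90 (SE 0.74) and 1.72 (SE 2.28) for IMA1, IMA2, IMA3 and bHLH100. Without the low-count filter edgeR gave adjusted p of 0.377, 0.423 and 0.381 for bHLH38, bHLH39 and bHLH101. The members' median difference in Fe-deficient 3 was 9.18 with a pseudocount of 0.1 CPM, 5.96 with 2 CPM, 7.62 on library totals, 8.61 on TPM and 7.35 to 7.80 with 1 control left out. In Fe-deficient 1 it was 0.93, 0.13 and 0.32 under the first 3 of these. In Fe-deficient 2 it was 0.35, 0 and 0, and 0.19 on TPM, and it ranged from -0.12 without control 1 and -0.11 without control 2 to 0.23 without control 3. Outside Fe-deficient 3 each member rests on 0 to 64 counts, which limits what can be said of Fe-deficient 1 and 2.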
